A study of Mus musculus with 18 samples.

Results

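Transcripts that were bright in the adult mouse testis, and less than 2-fold higher at P21 than at P14, were followed across 6 stages of testis development. The transcripts are array probes whose identifiers start with ASMM9PARTA, and they were chosen by their measured values. The median of the 3 arrays was taken at each stage. A probe passed if its adult median was at least 9, if its P21 median was less than 1 above its P14 median, and if its score was at least 1. The score is the adult median minus the highest of the other 5 stage medians. Of 34232 probes with such identifiers, among 37820 on the deposited arrays, 1278 passed, and the 200 with the highest scores are the members. All values are log2 signals as the authors deposited them, on a base taken to be 2, so a difference of 1 is 2-fold.

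Whole testis of mice was sampled on embryonic days 12.5 and 15.5 (E12.5, E15.5), on postnatal days 7, 14 and 21 (P7, P14, P21) and in adults. Each stage had 3 single-colour Cy3 arrays, 18 in all. The labels give no strain, genotype, treatment or adult age, and name no separate animals or litters. The p-values therefore weigh a change only against the spread among these samples, and that spread may be technical. Whether a probe detects a coding or a noncoding RNA is not given in the sources used here. No member identifier matched the gene tables used here (0 of 200), so members are named by identifier, no role is given to any of them, and the tissue was not checked against marker genes.

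As background, the first wave of spermatogenesis in the mouse runs in step with age. Spermatogonia are the most advanced germ cells in the first postnatal week, spermatocytes in meiotic prophase follow in the second, and round spermatids appear a week later. Spermatids then elongate, compact their chromatin by replacing histones with transition proteins and protamines, build an acrosome and a tail, and shed most of their cytoplasm. Elongating spermatids and sperm are thus present in the adult testis and nearly absent at P21. Much of what they translate is transcribed earlier and stored. Adult Leydig cells, which make testosterone, also mature after this age. In whole testis, fewer cells of a type and less RNA per cell cannot be told apart.

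Some arrays stood apart from others of their stage, and the results that rest on them are given with and without them. Array medians over all probes ran from 7.79 to 8.0, and the number of arrays limits the precision. E12.5 replicates 1 and 3 were nearly alike. The SD of their difference over all probes was 0.226, against 1.08 and 1.09 with replicate 2 and 0.301 to 1.17 within the other stages. Whether they are repeats of 1 sample was not tested, so the n of 3 at E12.5 is in doubt. E12.5 replicate 2 was the highest E12.5 array for 170 of the 200 members, against 63.2% of all probes. Its excess over the mean of replicates 1 and 3 had a median of 0.65 over the members and 0.34 over all probes. P21 replicate 1 was the lowest P21 array for 129 members and for 55.7% of all probes. Adult replicate 1 was more than 1 below both other adult arrays for 10 members and above them by that much for none (0), against 8.69% and 6.73% of all probes.

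The rise into the adult defines the members, so its size is a description and carries no test. The median score was 4.90, or 29.8-fold, with a highest score of 8.10 (274-fold) and a lowest of 3.92 (15.1-fold). Scores of at least 5 were reached by 92 members, of at least 6 by 51 and of at least 7 by 13. All 3 adult arrays were above all 15 earlier arrays for 191 members, against 10.3% of all probes, and the gap between the lowest adult and the highest earlier array was at least 3 for 187. The rule used this contrast, so nothing is read from these counts, and calls between P21 and adult are not given.

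**Figure D1:**
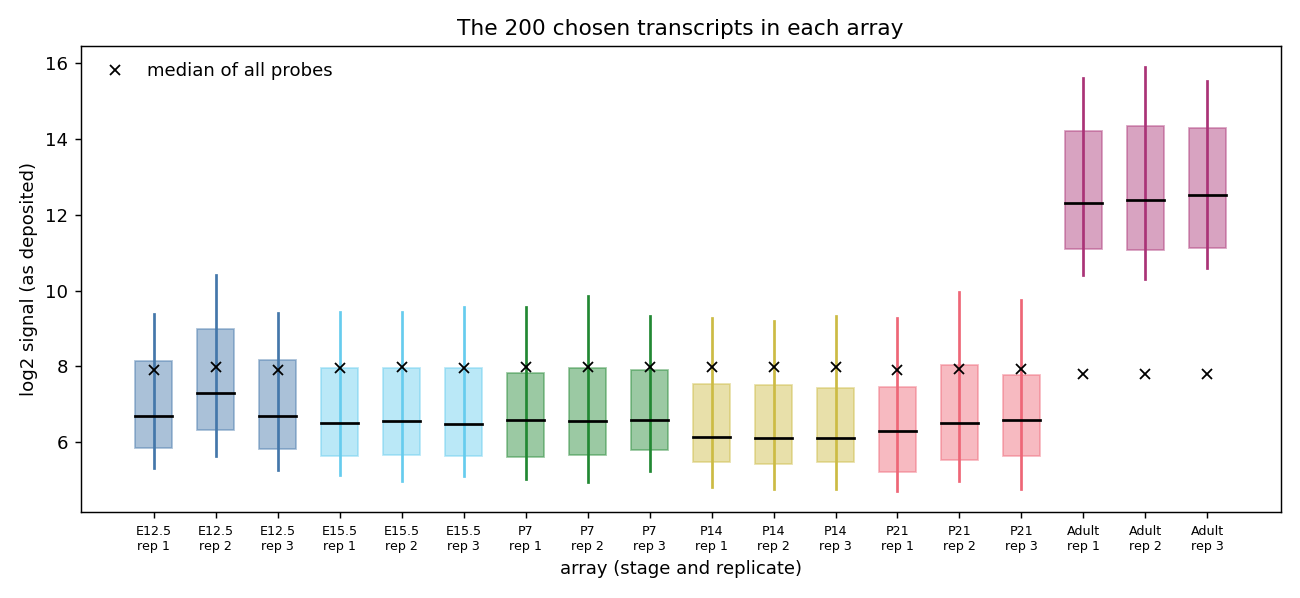
The log2 signal of the 200 members in each of the 18 arrays, grouped by stage: the black line is the median, the box spans the 25th to 75th percentile and the vertical line the 10th to 90th percentile; crosses mark the median of all 37820 probes. The members' median lies below the cross in all 15 arrays before the adult, between 6.12 and 7.31, and above it at 12.32 to 12.52 in the adult arrays.

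Before the adult, the members were mostly dim. Their median signal was 6.72 in E12.5 testis and 6.54 in E15.5 testis. It was 6.56, 6.13 and 6.51 on P7, P14 and P21, and 12.52 in the adult (medians of stage medians over 200 members). The median member ranked between the 19.1 and the 39.3 percentile of all probes in the 15 earlier arrays, where E12.5 replicate 2 gave the highest rank, and between the 87.1 and the 87.9 percentile in the adult arrays. The adult median was at least 12 for 120 members and at least 15 for 35.

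The name "on only after P21" did not hold for all members. For 67 members every earlier stage median was at or below 6.53, the limit of the dimmest 25% of probes by mean signal. For 72 members at least 1 earlier stage median was above 7.98, the largest of the medians over all probes at those stages, and for 22 it was above 10.10, the limit of the brightest 25%. No detection flags were used, so a low value cannot be called absent. The members are therefore best described as transcripts with a late rise, on top of an earlier signal in part of them.

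ASMM9PARTA029001, with the highest adult median of all members, shows such an earlier signal. It measured 13.10, 13.88 and 13.11 at E12.5. Its E15.5 arrays read 11.42, 11.27 and 11.33 and its P7 arrays 11.69, 11.70 and 11.72. It measured 10.49, 10.83 and 9.96 at P14, then 9.91, 11.27 and 10.90 at P21, and reached 17.85, 17.95 and 17.86 in the adult. The E12.5 arrays were thus the highest of the earlier ones, and the adult arrays lay above all of them. ASMM9PARTA031692, the second in adult level, stood between 10.48 and 11.62 in all 15 earlier arrays and at 17.58, 17.58 and 17.53 in the adult.

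At the other end, ASMM9PARTA012395 had the lowest adult median. Its adult arrays read 9.34, 9.58 and 9.39, above earlier values from 4.52 to 5.75. ASMM9PARTA044909 (9.89, 9.65 and 9.56 in the adult) and ASMM9PARTA000244 (9.36, 9.68 and 9.66) came next, with earlier values from 4.73 to 6.45 and from 3.97 to 5.37. These 3 members had no array near the middle of the array before the adult.

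**Figure D2:**
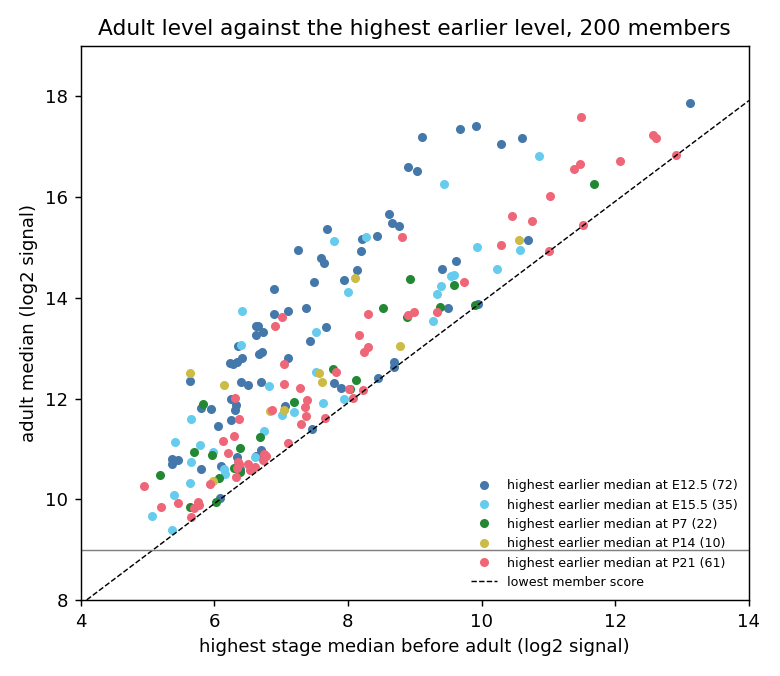
Adult median against the highest earlier stage median (both log2 signal) for the 200 members, coloured by the stage that held the highest earlier median, with the number of members in brackets; the dashed line marks the lowest member score of 3.92 and the grey line the adult minimum of 9. Points at E12.5 (72 members) and P21 (61 members) are the most frequent, and earlier levels reach 13.11.

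E12.5 held the highest earlier level of 72 members and P21 that of 61, followed by E15.5 with 35, P7 with 22 and P14 with 10. P14 was the lowest of the 5 earlier stages for 83 members. The 72 members that were highest at E12.5 had a median of 7.10 there, 5.78 at P14, 5.95 at P21 and 13.10 in adult testis. The 61 members that were highest at P21 had a median of 6.68 at E12.5, 6.83 at P14, 7.29 at P21 and 12.02 in adult testis. The 50 members with the highest scores included 36 that were highest at E12.5 and 4 at P21, and the 50 with the lowest scores included 11 and 23. The medians of the first 50 were 7.54 at E12.5, 5.85 at P14, 6.11 at P21 and 14.33 in adult testis. Those of the last 50 were 6.44, 6.31, 6.66 and 11.05. The groups follow from the values that define the score, so these counts carry no test.

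The 6 members with the highest scores had their highest earlier median in the fetal testis, at E12.5, and a lower one at P14. ASMM9PARTA044317, with the highest score, measured 9.10, 10.41 and 9.06 at E12.5. Its E15.5 arrays read 7.92, 7.23 and 7.31. At P7 it measured 6.69, 6.96 and 6.78. It then measured 4.90, 4.76 and 5.19 at P14, 5.18, 5.78 and 5.55 at P21, and 17.20, 17.14 and 17.24 in adult testis. Values did not overlap between E12.5, E15.5, P7 and P14, each stage being lower than the one before, and the P14 and P21 arrays overlapped. The fitted change from E12.5 to P14 was −4.57 (SE 0.31). The E12.5 level set the score of these 6 members, so their changes from E12.5 are a description and carry no test.

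ASMM9PARTA033468 was also high at E12.5 and low at P14. It stood at 9.67, 11.27 and 9.68 at E12.5, at 6.25, 5.93 and 5.75 at P14, at 5.29, 6.24 and 5.51 at P21, and at 17.32, 17.38 and 17.36 in the adult. Its fitted change from E12.5 to P14 was −4.23 (SE 0.36). ASMM9PARTA044055 had a fitted change of −3.0 (SE 0.32) over the same stages and read 15.03, 14.94 and 14.96 in the adult. ASMM9PARTA037943 measured 8.89, 10.78 and 8.90 at E12.5, 6.73, 6.76 and 6.48 at P14 and 6.49, 8.03 and 7.48 at P21, then 16.59, 16.62 and 16.58 in the adult. ASMM9PARTA043525, also among the 3 highest adult medians, measured 9.91, 11.39 and 9.84 at E12.5, 6.95, 6.65 and 6.83 at P14 and 17.41, 17.40 and 17.40 in the adult. ASMM9PARTA037943, ASMM9PARTA044491 and ASMM9PARTA043525 had E12.5 medians of 8.90, 7.69 and 9.91, P14 medians of 6.73, 5.71 and 6.83, and adult medians of 16.59, 15.36 and 17.40. In all 6, replicate 2 was the highest of the E12.5 arrays, by at least 1 in each.

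**Figure D3:**
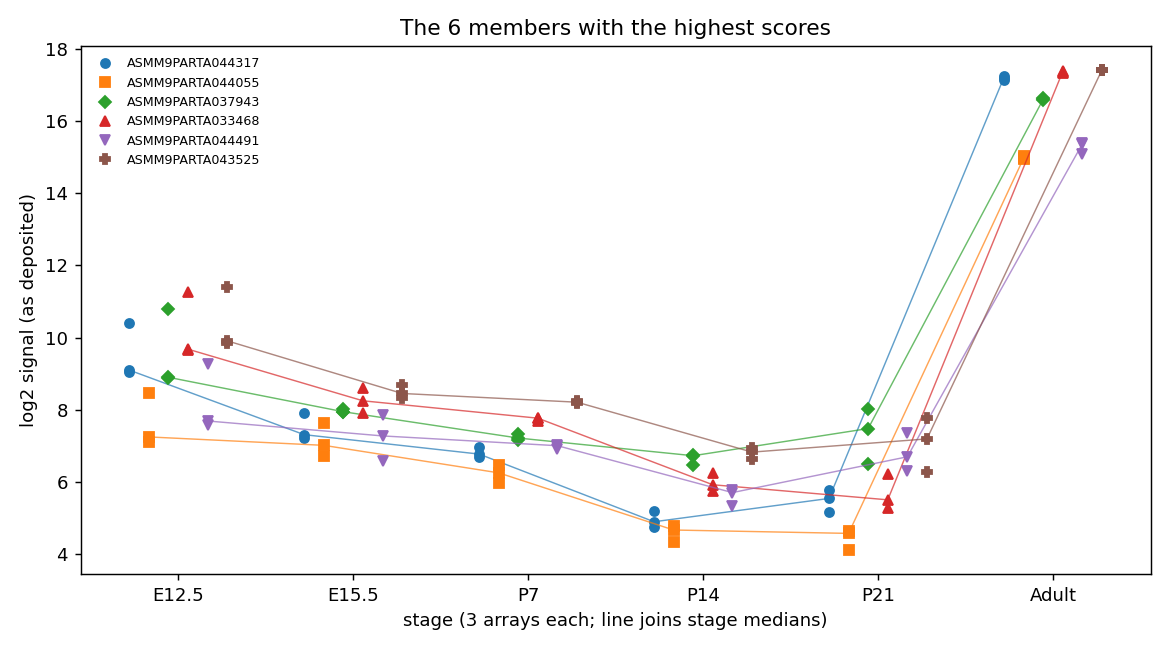
Log2 signal by stage for the 6 members with the highest scores; each symbol is an array (3 per stage), shifted sideways by member, and lines join stage medians. Medians lie between 7.25 and 9.91 at E12.5 and between 4.67 and 6.83 at P14, and stand between 14.96 and 17.40 in the adult.

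The rule used the medians before P21 as a ceiling below the adult level, and the P14 median also in the bound on P21 minus P14. Comparisons among the stages before P21 are therefore given as a description, and the members' counts in them support nothing. Changes were fitted in limma to all 18 arrays, with a call at a Benjamini-Hochberg adjusted p below 0.05 over all probes and a change of at least 2-fold. From E12.5 to P14, 59 of 200 members (29.5%) fell and 7 (3.50%) rose, where 12.7% of all probes fell and 14.5% rose. The median change was −0.44 over the members and 0.01 over all probes. Without E12.5 replicate 2, 52 members (26.0%) fell and 9 (4.50%) rose, against 15% and 16.6% of all probes, and the median changes were −0.26 and 0.09. Without Adult replicate 1, 59 members fell and 13 rose, against 13.4% and 14.8% of all probes. Of the members, 28 (14.0%) had a lower median at each step from E12.5 through E15.5 and P7 to P14, against 6.25% of all probes.

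To show these changes by brightness, all probes were split into 4 equal parts by the mean of their 15 earlier arrays, which held 101, 52, 35 and 12 members from dimmest to brightest. The members' median change from E12.5 to P14 was −0.40, −0.59, −0.17 and 0.64 in these parts, against 0.00, 0.08, 0.15 and 0.01 for all probes in them. The members' median was negative in the 3 dimmer parts and positive in the brightest, where few members lay. The members' median adult level was 11.16, 12.97, 14.39 and 16.77 in these parts. The earlier level entered the score, so the split is a description.

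From E12.5 to E15.5, 36 members (18%) fell and 8 (4.0%) rose, against 9.46% and 10.6% of all probes. The median change was −0.30 over the members and 0.12 over all probes. This balance depended in part on E12.5 replicate 2. Without it 27 members (13.5%) fell and 14 (7.00%) rose, against 13.2% and 15.3% of all probes. The share that fell was then close to that of all probes, and the share that rose stayed below it. The median changes were then −0.12 over the members and 0.24 over all probes. The largest called fall was that of ASMM9PARTA043796, which measured 10.05, 6.63 and 9.94 at E12.5, against 5.74, 5.17 and 5.12 at E15.5 (change −3.53, SE 0.70). The second E12.5 array was far below the other two, closer to the E15.5 arrays. ASMM9PARTA019273 measured 7.30, 8.81 and 7.37 at E12.5, against 5.18, 4.79 and 5.33 at E15.5 (change −2.73, SE 0.37), and read 2.39, 3.70 and 3.60 at P21 and 13.65 to 14.0 in the adult. Against this trend, ASMM9PARTA043057 rose by 2.75 (SE 0.29), from 9.39, 10.74 and 9.36 to 12.60, 12.54 and 12.58. It stayed at 10.63 or above in every later array and is the member with the lowest score.

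Across birth, from E15.5 to P7, few members were called. Of the 200, 13 (6.50%) fell and 7 (3.50%) rose, where 8.23% of all probes fell and 7.50% rose, with a median change of 0.04 over the members and 0.01 over all probes. Without Adult replicate 1, 13 fell and 13 rose, against 8.61% and 7.73% of all probes. ASMM9PARTA043796 returned to 9.80, 7.79 and 7.70 at P7 (change 3.09, SE 0.70), so that E15.5 was a low point between higher neighbours. It measured 9.99, 9.86 and 9.94 at P14, 9.48, 9.18 and 9.25 at P21 and 13.62, 13.97 and 13.88 in adult testis. ASMM9PARTA036123 also rose by 1.96 (SE 0.36), from 5.09, 4.25 and 5.02 to 7.11, 6.63 and 6.49. ASMM9PARTA037858 had the opposite course. Before the adult it was highest at E15.5 (10.12, 10.23 and 10.28), and it fell by 2.26 (SE 0.40) to 7.87, 8.04 and 7.94 at P7.

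From P7 to P14 falls again outnumbered rises. Of the 200 members, 25 (12.5%) fell and 6 (3.00%) rose, against 6.64% and 6.21% of all probes, and the median change was −0.28 over the members and −0.06 over all probes. The number called moved from 31 to 19 without P7 replicate 2, with 15 falls and 4 rises (7.50% and 2.00%), against 4.87% and 4.20% of all probes. ASMM9PARTA026738 gave the largest called change. It measured 7.99, 7.72 and 7.79 at P7, 4.02, 3.86 and 3.67 at P14, 3.61, 4.09 and 3.96 at P21 and 16.29, 16.15 and 16.25 in adult testis. It fell by 3.98 from P7 to P14 (SE 0.23), with no overlap between the stages. ASMM9PARTA035860 fell by 2.18 (SE 0.21), from 7.62, 8.12 and 7.59 to 5.58, 5.55 and 5.66. ASMM9PARTA000349 rose by 2.70 (SE 0.31), from 4.76, 4.99 and 4.96 to 7.61, 7.54 and 7.64. It then stayed at 7.20, 7.10 and 7.22 at P21, before 12.33, 12.36 and 12.02 in the adult.

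**Figure D4:**
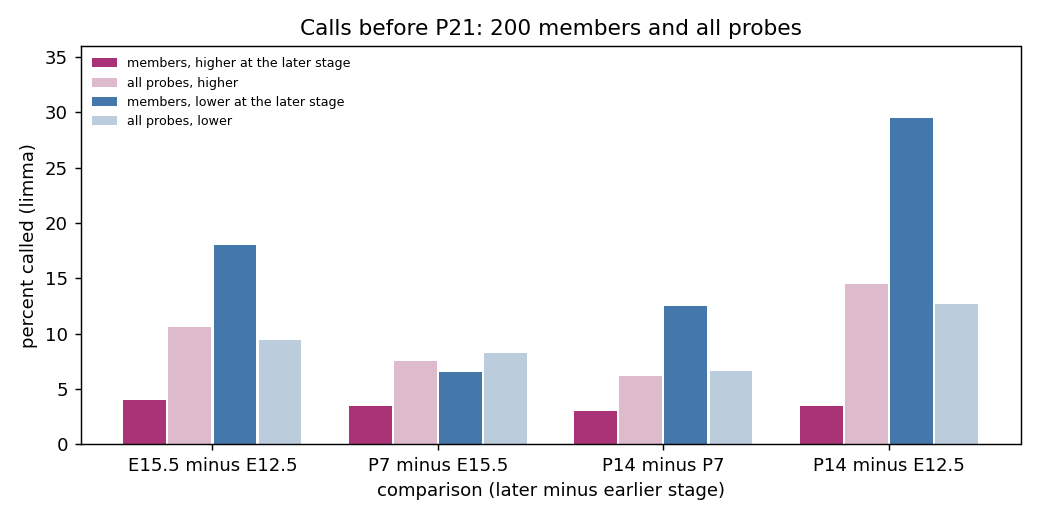
Percent of the 200 members (dark bars) and of all 37820 probes (pale bars) called higher (red) or lower (blue) at the later stage in 4 comparisons of stages before P21 (limma, adjusted p below 0.05 and at least 2-fold). Members called lower reach 29.5% from E12.5 to P14, against 12.7% of all probes, and members called higher stay at or below 4.0%.

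Between P14 and P21 the rule set an upper bound of 1 on the difference of medians, so the members' values are a description. The difference ran from −2.49 to 1.00 with a median of 0.35, against −0.07 over all probes, and was 0.5 or more for 71 members and below 0 for 54. In limma's fit, which uses means, 10 members were called higher and 7 lower at P21, against 9.20% and 14.3% of all probes, and nothing is read from these counts. The split of these calls moved with the scaling, from 10 higher and 7 lower to 14 and 4 after quantile normalization again and 12 and 5 once arrays were centred on their medians. It also moved with single arrays, to 15 and 6 without P21 replicate 1, 6 and 6 without P21 replicate 3, and 3 and 6 without P14 replicate 2.

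The P21 arrays differed among themselves more than the P14 arrays did. The median range of the 3 arrays over the members was 0.95 at P21, 0.25 at P14 and 0.30 in the adult, close to the 0.93 and 0.23 over all probes at P21 and P14 and below the 0.54 of all probes in the adult. A value at least 1 above the P14 median was found for 12 members in P21 replicate 1, for 26 in replicate 2 and for 15 in replicate 3. All 3 P21 arrays lay within 1 of the P14 median for 129 members.

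At the upper bound, ASMM9PARTA024155 measured 7.77, 7.99 and 8.06 at P14 and 8.48, 8.99 and 9.61 at P21, without overlap, and 13.72, 13.71 and 13.62 in the adult. ASMM9PARTA044491 (5.78, 5.71 and 5.33 at P14, 6.30, 7.35 and 6.70 at P21) and ASMM9PARTA016427 (6.89, 6.96 and 7.07 at P14, 7.34, 8.11 and 7.95 at P21) also had P21 arrays above all P14 arrays. These 3 members had the largest P21 minus P14 differences. ASMM9PARTA042206 was uneven at P21, with 8.67, 6.52 and 5.93, after 5.80, 5.42 and 5.72 at P14. It is one of the 3 members with the widest range among the P21 arrays.

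Other members were lower at P21 than at P14. ASMM9PARTA036233 measured 7.16, 6.90 and 6.65 at P14, 6.20, 3.60 and 4.41 at P21, with an adult median of 11.99. ASMM9PARTA036123 went from 7.00, 7.03 and 6.91 to 5.78, 4.62 and 4.43 and on to 11.11, 11.40 and 11.69. ASMM9PARTA032538 went from 7.74, 7.85 and 7.98 to 7.00, 5.39 and 6.55 and on to 14.07, 13.99 and 14.27. No P21 array of these 3 members reached a P14 array.

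In the adult, 157 members had a range of at most 0.5 between their 3 arrays, but 9 members were bright in replicates 2 and 3 alone. Their adult replicate 1 lay more than 3 below both other arrays, and it lay below at least 1 earlier array for each of them. These are the 9 members of the 200 whose adult arrays did not all exceed the earlier ones. The median over the 9 was 10.41 in Adult replicate 1, 15.31 in replicate 2 and 14.93 in replicate 3, beside 10.90 in P21 replicate 2 and 10.29 in P21 replicate 3. Because the rule takes the median of the 3 arrays, they were chosen on replicates 2 and 3, and their score describes those arrays.

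ASMM9PARTA029999 showed the widest gap, with 8.95, 14.37 and 13.66 in the adult. It measured 8.79, 9.96 and 8.32 at P7, 8.51, 8.36 and 8.31 at P14 and 7.98, 9.39 and 8.90 at P21, so Adult replicate 1 was within the range of the juvenile arrays. ASMM9PARTA000633 read 10.99, 16.15 and 15.52 in the adult and ASMM9PARTA028510 read 9.23, 14.34 and 13.71. ASMM9PARTA005543, among the 3 lowest scores, read 11.15, 15.31 and 14.93, after 10.24 and 11.55 in P21 replicates 1 and 2. The others were ASMM9PARTA049917, ASMM9PARTA024310, ASMM9PARTA037144, ASMM9PARTA047514 and ASMM9PARTA000529.

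The 9 members also largely shared the order of arrays within earlier stages. The rule used the medians of these stages, so these values are not independent of the choice. P7 replicate 3 was the lowest P7 array for 9 of the 9, where it was the lowest for 32.3% of all probes. P21 replicate 2 was the highest P21 array for 9 of the 9 (43.2% of all probes), and P14 replicate 3 the lowest P14 array for 8 (36.9%). The 9 were noticed for their adult values, and these counts carry no test. Their spread in the adult enters the shared error of the fit, in which none of them (0) was called higher at P7 than at E15.5, nor (0) at P14 than at E12.5. Without Adult replicate 1, 5 and 6 of the 9 were called higher in these comparisons, as were 7.73% and 14.8% of all probes. For ASMM9PARTA029999 the change from E15.5 to P7 was 1.25, with an SE of 0.95 over 18 arrays and 0.40 without Adult replicate 1. The 9 were chosen for their values in the array left out. The smaller error therefore follows from the choice, and these calls carry no test.

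**Figure D5:**
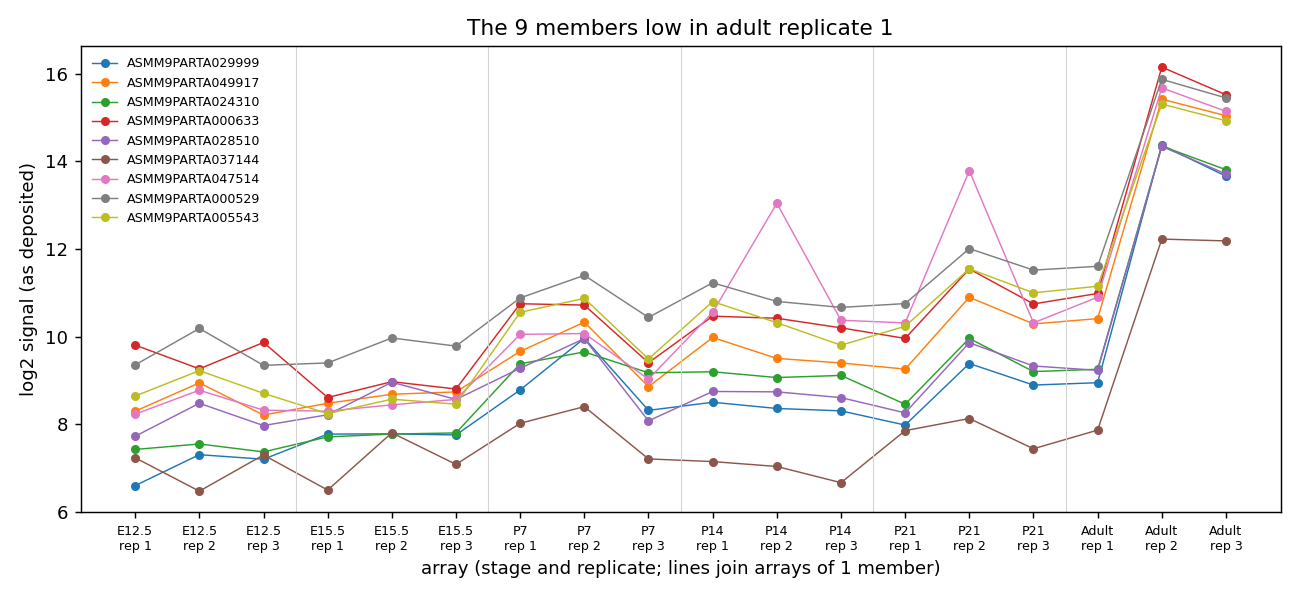
Log2 signal in each of the 18 arrays for the 9 members whose Adult replicate 1 lay more than 3 below both other adult arrays; lines join the arrays of a member. Adult replicate 1 (median 10.41) stands at the level of the P21 arrays, and replicates 2 and 3 (medians 15.31 and 14.93) stand above them for 9 of 9 members.

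ASMM9PARTA047514 and ASMM9PARTA044952 departed from the rule's description in another way. ASMM9PARTA047514 read 10.55, 13.04 and 10.38 at P14, 10.32, 13.79 and 10.32 at P21 and 10.90, 15.68 and 15.14 in adult testis. ASMM9PARTA044952 read 10.78, 13.95 and 10.16 at P14, 10.55, 14.68 and 11.02 at P21 and 15.10, 16.53 and 16.02 in adult testis. In both, replicate 2 was more than 2 above the other arrays at P14 and again at P21, a pattern that 4 of all 37820 probes showed.

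The last members by score were close to the first probes left out. ASMM9PARTA005543, ASMM9PARTA001711 and ASMM9PARTA043057 had scores of 3.92, 3.92 and 3.92, and ASMM9PARTA051498, ASMM9PARTA016472 and ASMM9PARTA019982, just outside, had 3.91, 3.88 and 3.88. ASMM9PARTA001711 rose from 5.06, 5.40 and 5.05 at P21 to 10.01, 9.95 and 9.83 in the adult. The 1078 probes that passed the limits but had lower scores had a median score of 1.78. They were brighter at P14 (8.50 against 6.13) and dimmer in the adult (11.06 against 12.52). These values describe the choice and carry no test.

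The members differed by construction from transcripts that had risen at least 2-fold from P14 to P21. With the same limits but a P21 median at least 1 above P14, 851 probes passed. The 200 of these with the highest scores had medians of 5.11 on P14, 8.29 on P21 and 14.72 in the adult, where the members had 6.13, 6.51 and 12.52. At E12.5 the medians were 7.67 and 6.72, and at P7 6.85 and 6.56. The difference was not tested, since the values that define both sets are the ones compared.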

How the data were processed

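The authors deposited 1 value per probe and array, taken to be log2 signals; the log base was inferred from their range (2.38 to 18.34), and no source used here states the normalization or a probe filter. Per the submitters' processing notes, the software was Agilent Feature Extraction 11.0.1.1. Per the labels' protocols, ribosomal RNA was removed and cRNA was labelled with Cy3 by random priming. The values were used as deposited. The members and lists were chosen with earlier results of these data known. Gene lists and cell type markers could not be used, because no identifier matched the gene tables (0 of 37820).

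Stage means were estimated for 37820 probes over all 18 arrays together (limma 3.58.1, R 4.3.3, lmFit and eBayes), with 12 residual degrees of freedom per probe and 3.20 from the prior. Calls needed an adjusted p (Benjamini-Hochberg) below 0.05 and a change of at least 1. The fit was tested on simulated data with independent normal errors and the same SD in all arrays of a probe. Those data held no outlying or nearly alike arrays, so the test does not cover them. Errors after a change are the fit's standard errors.

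Named members were the 6 highest and 3 lowest scores with the 3 probes just outside, the 3 highest and 3 lowest adult medians, the 3 largest called changes in each of the 3 intervals before P14, the 3 largest and 3 smallest differences between P21 and P14, and the 3 widest ranges among adult and among P21 arrays. The other 4 members low in Adult replicate 1 were named after their values were seen. Arrays were not paired by replicate number in the main fit. Deviations from stage means of arrays with the same number correlated between −0.37 and 0.505, above 0.1 in 14 of 45 pairs. Arrays with different numbers were not compared in this way, so whether the numbers pair arrays was not tested. Alternatives were other scalings, priors, thresholds, a replicate block and arrays left out. Figures were drawn with matplotlib 3.10.9.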

Additional observations from a re-analysis of the deposited data

How the results depend on the processing

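The choice of members rested on P21 more than on any other stage. With single arrays left out, the rule chose between 167 (without P21 replicate 2) and 199 of the same 200 probes. It chose 129 of them with P21 minus P14 below 0.5, and 76 with no bound on that difference. The median score of the members was 4.90, and it moved by more than 0.0083 in most recomputations. That value is the SD of the median score over the 3 adult arrays. It is not the spread of single members, whose median adult range was 0.30. The median score was 4.88 with stage means, 5.0 after quantile normalization again and 5.06 with arrays centred. It was 4.86 without E12.5 replicate 2 and P21 replicate 1 together, and 4.84 without Adult replicate 1 and P21 replicate 1 together. With single arrays left out it ran from 4.82 to 4.94. At an adjusted p below 0.01, 18 members in place of 31 were called from P7 to P14 and 10 in place of 17 from P14 to P21. With single arrays left out these counts ran from 19 to 35 and from 9 (without P14 replicate 2) to 21. With the replicate number as a block, 44, 20, 31, 18 and 67 members were called in E15.5 against E12.5, P7 against E15.5, P14 against P7, P21 against P14 and P14 against E12.5, and the block changed no call among the 9 largest called changes named for the 3 intervals before P14. E12.5 replicates 1 and 3 averaged to 1 array, chosen after seeing the data because these arrays were nearly alike, gave 41 and 67 members called in the comparisons of E12.5 with E15.5 and P14. None of these 9 changes turned its direction or lost its call under the 28 alternatives. They were picked as the largest called changes of the main fit, so this stability follows in part from the choice. Other changes of single members were not recomputed under all of the alternatives. In all, 27 of 470 recomputed values moved. A count moved if it changed by a ratio above 1.5, and the median score if it changed by more than that SD of 0.0083. The 470 include 252 values of the 9 largest called changes, none of which moved. They also include calls between P21 and adult, for which the rule selects. Counts were compared as totals, so a shift between rises and falls did not count as moved. Dim probes have no stated limit of detection, so falls to low levels may be understated.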

Other observations

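The limits of the rule were also applied to the other probe families on the array. Passing them were 95 of 2480 probes with lincRNA in the identifier (3.83%), 20 of 527 CUST probes (3.80%), 23 of 581 probes named by a sequence accession (3.96%) and 1278 of 34232 ASMM9PARTA probes (3.73%). The lowest member score of 3.92 was reached by 3, 0, 1 and 200 of them (0.12%, 0%, 0.17% and 0.58% of the families). The rule set this limit by taking 200 ASMM9PARTA probes, so the last of these counts follows from the choice. The highest scores were 4.56 among lincRNA probes, 3.05 among CUST probes, 4.41 among accessions and 8.10 among ASMM9PARTA probes. A larger family tends to hold a higher maximum, so nothing is read from these highest scores. The families differ in brightness, since 21.3% of lincRNA probes and 36.5% of ASMM9PARTA probes had an adult median of at least 9, and the shares were not tested.

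Some members had nearly the same values in all 18 arrays. ASMM9PARTA019500 and ASMM9PARTA042791 differed by a root mean square of 0.14, as did ASMM9PARTA021598 and ASMM9PARTA010407, where the median over all pairs of members was 1.90. Whether such probes detect the same transcript was not tested. These 4 members were chosen after their values were seen.

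The drop in Adult replicate 1 was not limited to the members. Over all probes, 482 (1.27%) were more than 3 below both other adult arrays in that array and 75 were more than 3 above them. Among the members the drop was found for 9 (4.50%). The rule kept only adult medians of at least 9, where the adult median over all probes was 7.79. Bright probes have more room to drop, and equally bright probes were not compared, so nothing is read from these shares. Across the members, the adult replicates 1 and 2 correlated at 0.868 with these 9 and at 0.987 without them, and replicates 2 and 3 at 0.993 with them. Members are not replicates in these correlations. The age and strain of the adult mice are not given in the labels, and what sets replicate 1 apart was not tested.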
